A study of Papio anubis with 60 samples.

Results

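Peaks of acetylation and of trimethylation of the same residue, lysine 27 of histone H3, were compared within embryonic stem cells (ESC) of the olive baboon, Papio anubis. Every peak of the ESC lists of H3K27ac and of H3K27me3 on chromosomes 1 to 20 was taken, by its position alone. These were 376101 H3K27ac peaks (97.1% of the list) and 51150 H3K27me3 peaks (63.4%), together 427251 of the 2116963 peaks in the 8 lists of the series. Chromatin of lines B4 and B15, grown on feeder cells, was cut with micrococcal nuclease and immunoprecipitated, with 50000 cells to a library. Each line gave 3 libraries per mark, so the labels give 6 libraries per mark in ESC, and there is 1 list per mark with no replicate. How libraries were combined to a list is not stated. The iPSC lists, used here for a few values only, come from lines 160-2 and M14939#3, grown in the same way with no other treatment named in the labels. The lists hold no expression values, so cell identity was not checked. Differences were set beside counting error and circular shifts of the lists, and not beside the spread between cultures.

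A lysine can be acetylated or trimethylated, and a single H3 tail cannot carry both at position 27. Acetylation there is laid down by p300 and CBP and marks active promoters and enhancers. Trimethylation is laid down by Polycomb repressive complex PRC2, and covers silent developmental genes, often over long domains. At such genes in pluripotent cells H3K27me3 commonly lies with H3K4me3, the mark of promoters, in what is termed bivalent chromatin. A peak list pools many cells and both chromosome copies. Overlap of peaks can thus come from separate nucleosomes, tails, copies or cells, and the lists do not tell these apart.

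The H3K27ac list was made of many short peaks and the H3K27me3 list of fewer peaks of very uneven width. H3K27ac peaks had a median width of 216 bp (quartiles 167 and 311 bp, widest 4430 bp) and covered 102 Mb, or 3.95% of the 2594 Mb of chromosomes 1 to 20. H3K27me3 peaks had a median width of 446 bp (quartiles 270 and 889 bp, widest 120311 bp) and covered 53.9 Mb, or 2.08%. No peaks of a list overlapped, so peaks and regions are the same here. The authors' fold enrichment had a median of 2.95 for H3K27ac and 3.01 for H3K27me3. Their −log10 q had a median of 6.42 and of 2.12, on lists whose lowest values were 1.303 and 1.0003. Depth is unknown, and a deeper library yields more and weaker peaks. Of the H3K27ac regions 40.3% shared at least 1 bp with an ESC H3K4me3 peak, and of the H3K27me3 regions 48.1%. These are referred to as regions at H3K4me3, and the others as regions away from it. After circular shifts along each chromosome the 2 shares were 8.26% and 13.7%, so the marks lay on H3K4me3 4.89 and 3.51 times as often as shifted lists.

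The 2 marks met at H3K4me3 and rarely elsewhere. At H3K4me3, 7731 of 151734 H3K27ac regions touched H3K27me3, which is 5.10% (95% Wilson interval 4.99 to 5.21). Away from H3K4me3, 1135 of 224367 did so, or 0.506% (0.477 to 0.536). When the lists were shifted against each other along each chromosome, 100 times, the mean was 2.85% for the regions at H3K4me3 (range 2.62 to 3.00) and 2.58% for those away from it (2.41 to 2.74). Overlap was therefore 1.79 times the shifted level at H3K4me3 and 0.196 times away from it. Over both classes the share was 2.36% (2.31 to 2.41), below the shifted mean of 2.69% (2.56 to 2.80), a smaller departure than that of either class.

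The same held from the side of methylation. Of the H3K27me3 regions at H3K4me3, 7077 of 24613 touched H3K27ac, or 28.8% (28.2 to 29.3), against a shifted mean of 19.07% (18.2 to 19.8). Away from H3K4me3, 987 of 26537 touched it, or 3.72% (3.50 to 3.95), against 10.04% (9.42 to 10.8). Over both classes it was 15.8% (15.5 to 16.1), above the shifted mean of 14.4% (13.8 to 15.1). Shifts confined to windows of 1 Mb, which keep the regional density of peaks, gave 3.32% and 2.58% for H3K27ac and 20.9% and 10.5% for H3K27me3, at and away from H3K4me3. The direction was the same under these shifts in all 4 cases. A shift also breaks the tie of each mark to H3K4me3, so the excess at H3K4me3 is an excess over sequence at large. Regions away from H3K4me3 cannot lie on the 22.5 Mb of the 53.9 Mb of H3K27me3 that is under H3K4me3, while shifted ones can. Part of their deficit is thus set by the class, from either mark, as in every later comparison of regions away from H3K4me3 with shifts. The comparison within and outside H3K4me3 sequence follows.

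**Figure D1:**
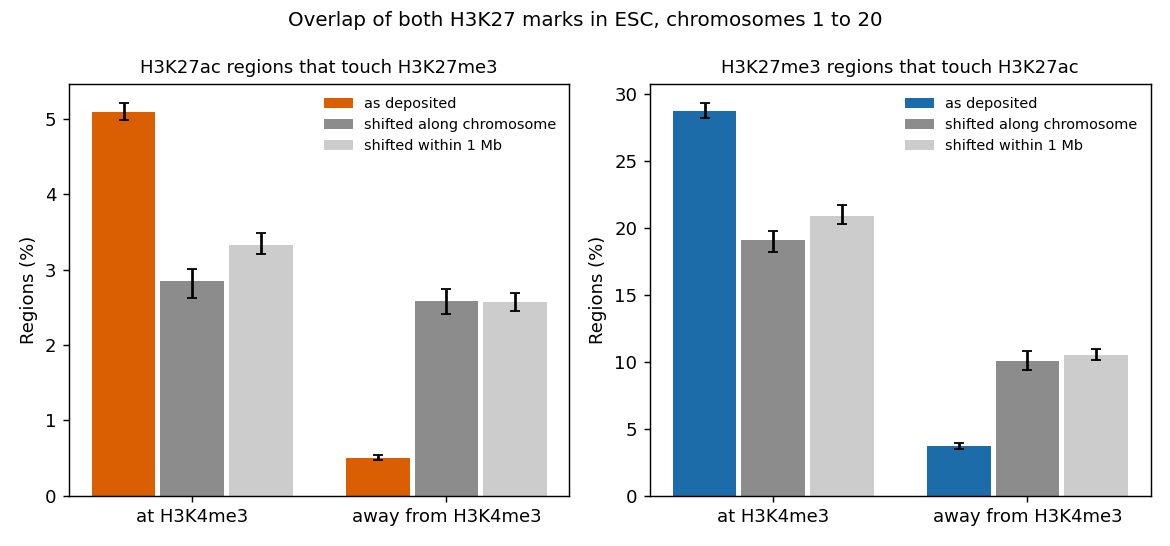
Percent of H3K27ac regions that touch H3K27me3 (left) and of H3K27me3 regions that touch H3K27ac (right), at and away from H3K4me3, in ESC. Coloured bars are the lists as deposited with 95% Wilson intervals, and grey bars are means of 100 shifts with their lowest and highest values; the coloured bar stands above both grey bars at H3K4me3 (5.10% and 28.8%) and below them away from it (0.506% and 3.72%).

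Within the sequence under H3K4me3, base pairs of both marks coincided less often than independent placing gives. H3K27ac covered 31.8% and H3K27me3 16.6% of the 135 Mb under H3K4me3. Both covered 1.27% of it, where the product of the 2 shares is 5.29%, a ratio of 0.239. Outside H3K4me3 the marks covered 2.42% and 1.28%, and both covered 0.00922% against a product of 0.0309%, a ratio of 0.298. By this measure the deficit outside H3K4me3 was no deeper than under it. Over all sequence the ratio was 0.910. Of the 1.94 Mb under both marks, 1.71 Mb lay under H3K4me3.

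Single H3K4me3 regions showed the same deficit in all 5 groups by width. Of 305565 H3K4me3 regions, 9343 bore both marks, 133100 H3K27ac alone, 27754 H3K27me3 alone and 135368 neither. Independent marks would give 17293 with both. H3K27ac lay on 25.2% of the regions with H3K27me3 (24.7 to 25.6) and on 49.6% of those without it (49.4 to 49.8). In the narrowest of 5 groups of about equal size the shares were 5.61% and 33.9%, and in the widest 39.3% and 74.2%. Among H3K4me3 regions of 2 to 5 kb they were 47.6% and 93.5%.

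In the H3K4me3 regions that bore both marks H3K27ac covered 36.0% of the length, H3K27me3 38.4% and both 12.6%. These regions were taken for bearing both marks, and narrow ones leave little room for the marks to lie apart, so no placement is read from these shares. Placement was also measured in bins of increasing size, where the ratio compares placement within bins. As bins shrink below the width of a peak the ratio tends to 1 by construction, so the smallest bins tell little. The values at H3K4me3 also carry the tie of both marks to it. For H3K27ac away from H3K4me3, the base pairs in common were 1.23 times the summed product in bins of 1 kb, 1.03 times in bins of 3 kb, 0.540 times in bins of 10 kb, 0.208 times in bins of 100 kb and 0.147 times in bins of 1000 kb. For H3K27ac at H3K4me3 the ratio was 1.13 in bins of 1 kb, highest at 1.63 in bins of 30 kb, and 1.36 in bins of 1000 kb. Away from H3K4me3 the ratio was thus above 1 within bins of 1 kb, where 2363 bins held both marks, and under 1 from bins of 10 kb on.

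Where H3K27ac regions touched methylation, fewer lay wholly inside a methylated region than after shifting. At H3K4me3, 51.9% of the 7731 regions crossed an end, 24.5% lay wholly inside a methylated region and 23.6% spanned a whole one, against shifted means of 38.9%, 56.1% and 4.92%. Away from H3K4me3, 70.1% of the 1135 crossed an end, 22.6% lay inside and 7.22% spanned one, against 33.4%, 64.99% and 1.63%. Shifted regions land on methylated regions in proportion to their width, so these shares reflect the width of the regions touched as well as the place within them. The stretches under both marks were short, with a median of 172 bp. Of 8911 stretches, 41 were at least 1 kb long.

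At H3K4me3 overlap was highest for the strongest acetylation and for the weakest methylation. Regions were ranked into 5 groups of about equal size by the authors' −log10 q within each list. At H3K4me3, 7.67% of the strongest H3K27ac regions touched H3K27me3 (shifted mean 3.11%), against 3.59% of the middle group (2.69%) and 4.55% of the weakest (2.69%). The strongest were also wider, with a median of 358 bp against 227 bp for the weakest. Away from H3K4me3 the 5 groups lay between 0.436% and 0.553%. At H3K4me3, 22.8% of the strongest H3K27me3 regions touched H3K27ac, below their shifted mean of 31.2%, while 38.2% of the weakest did so, above theirs of 9.76%. The strongest methylated regions were also far wider, with a median of 2259.5 bp against 366 bp. Away from H3K4me3 the shares were 2.053% of the strongest and 5.52% of the weakest, both below the shifted means of 10.7% and 9.28%. The median fold of H3K27ac peaks at H3K4me3 was 3.60 where they touched methylation and 3.19 where they did not. That of H3K27me3 peaks there was 3.14 where they touched acetylation and 3.31 where they did not.

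H3K27ac covered less of the H3K4me3 sequence the nearer that sequence lay to methylation. H3K27me3 peaks within 3 kb of each other were joined to 29842 domains, of which 16667 held H3K4me3. Under H3K4me3, H3K27ac covered 7.62% of the methylated sequence and 14.1% of the gaps inside domains. It covered 28.6% within 3 kb outside a domain, 36.02% from 3 to 20 kb and 42.9% at over 20 kb. Outside H3K4me3 it covered 0.721% and 0.659% inside domains, 1.74% within 3 kb, 2.57% from 3 to 20 kb and 2.48% beyond. H3K4me3 itself was densest in methylated sequence, at 41.7%, against 3.051% at over 20 kb from a domain.

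**Figure D2:**
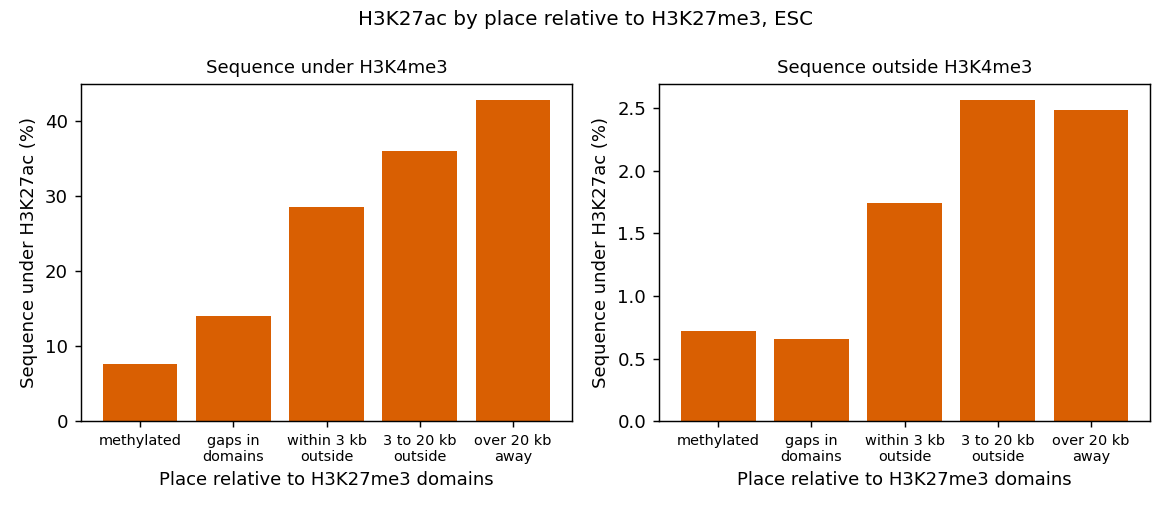
Percent of sequence under H3K27ac, for sequence under H3K4me3 (left) and outside it (right), by place relative to H3K27me3 domains; each bar is a sum over chromosomes 1 to 20. Under H3K4me3 the bars climb with distance from methylation, 7.62% in methylated sequence and 42.9% at over 20 kb, and outside H3K4me3 they are near level from 3 kb on (2.57% and 2.48%).

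Narrow methylated domains were rich in acetylation and wide ones poor. Of 14474 domains under 0.5 kb, 22.3% held H3K27ac (21.7 to 23.01), against a shifted mean of 8.18%, and H3K27ac covered 15.4% of their length. Of 4997 domains of 2 to 5 kb, 37.9% held it, against 35.2%. Of 478 domains of at least 20 kb, 258 held it, or 54.0% (49.5 to 58.4), against 90.5% (range 87.4 to 93.3). It covered 0.959% of the length of these widest domains, and 4.10% after shifting (3.46 to 5.00). The excess in narrow domains lay at H3K4me3: under 0.5 kb, 55.04% of those at H3K4me3 held H3K27ac (shifted mean 8.27%), against 5.66% of those away from it (8.13%). The domains of at least 20 kb all held H3K4me3, which covered 40.6% of their length. Without joining, H3K27ac covered 10.5% of methylated regions under 0.5 kb and 0.447% of those of at least 10 kb.

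**Figure D3:**
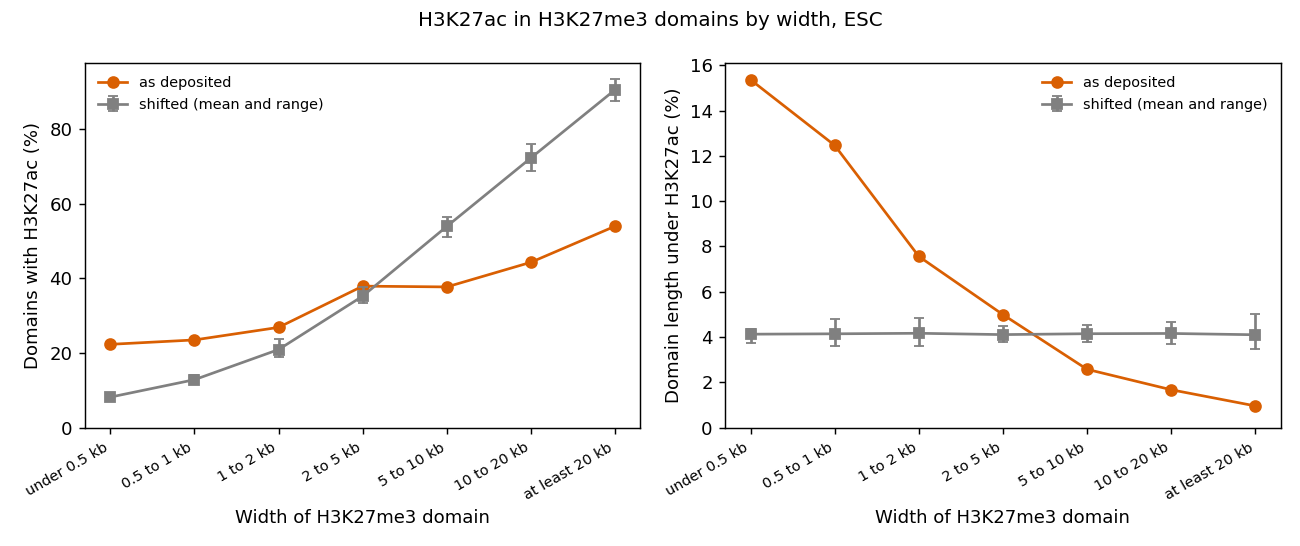
Percent of H3K27me3 domains that hold H3K27ac (left) and percent of domain length under H3K27ac (right), by domain width. Orange points are the lists as deposited and grey squares the mean and range of 100 shifts; the lines cross between the classes of 2 to 5 kb and 5 to 10 kb, and at 20 kb or more 54.0% of the domains hold H3K27ac against 90.5% after shifting.

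Most wide domains held no acetylation, and summed over all of them it covered a larger share of the gaps between methylated peaks than of the peaks. Of 4344 domains of at least 5 kb, 2555 held no H3K27ac (58.8%). In 1064 (24.5%) it lay only between the outer zones, which were taken as 1 kb at each end. In 394 it lay at an end and in the middle, in 263 at an end only, in 56 at both ends and in the middle, and in 12 at both ends only. Over all 4344 domains H3K27ac covered 1.29% of the methylated sequence and 2.86% of the gaps. Under H3K4me3 it covered 2.57% and 11.2%.

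Pooled over widths, the outer 1 kb zones held more acetylated regions than their length gives. This pooled excess does not by itself place H3K27ac at the edge. The zones made up 16.9% of the length of the domains of at least 5 kb. Of 3172 H3K27ac midpoints inside, 682 lay in them, or 21.5% (20.1 to 23.0), against a shifted mean of 16.9% (15.8 to 18.1). For H3K27ac away from H3K4me3 it was 124 of 384, or 32.3% (27.8 to 37.1), against 16.9% (15.4 to 18.6). Regions of this class cannot lie on H3K4me3, which covered 19.4% of the outer 1 kb and 34.4% from 1 to 2.5 kb inside. Shifted regions can lie on it, so part of this excess is set by the class. For H3K27ac at H3K4me3 the share was 558 of 2788, or 20.01% (18.6 to 21.5), against 17.0% (15.3 to 19.1), and these ranges overlap. Without the methylated regions on H3K9me3 the share over all H3K27ac was 24.1% (22.2 to 26.2) against 22.2% (20.5 to 24.5), and these ranges overlap too. The pooled share mixes widths. H3K27ac covered 2.58% of the length of domains of 5 to 10 kb and 0.959% of those of at least 20 kb. The zones take up more of a narrow domain, and the shifted mean does not allow for this mix. The edge was not richer at every width. In domains of at least 5 kb H3K27ac covered 2.25% of the outer 1 kb and 2.46% from 1 to 2.5 kb inside. In those of at least 10 kb it covered 2.18% and 1.69%. With each domain divided into 10 equal parts, H3K27ac covered 1.90% of the outermost parts and 1.04% of the innermost in domains of at least 10 kb, and in domains of 5 to 10 kb 2.35% and 2.82%. H3K4me3 covered 19.9% of the outermost and 49.2% of the innermost parts in the wider class, and 19.1% and 53.8% in the narrower. The H3K27ac shares are of all sequence and do not allow for this difference in H3K4me3.

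Outside the ends of wide domains, acetylation away from H3K4me3 covered little sequence near the end, and that at H3K4me3 changed less. Round domains of at least 10 kb, H3K27ac regions away from H3K4me3 covered 0.155% of the sequence from 2.5 to 5 kb inside an end and 0.308% of the first 1 kb inside. They covered 0.432% of the first 1 kb outside, 0.807% from 1 to 3 kb, 1.13% from 3 to 5 kb, 1.38% from 5 to 10 kb, 1.66% from 10 to 20 kb and 2.01% from 20 to 50 kb. H3K27ac regions at H3K4me3 covered 1.40% from 2.5 to 5 kb inside, 1.75% of the first 1 kb outside and 2.18% from 20 to 50 kb outside. H3K4me3 covered 37.1%, 10.6% and 6.22% of the same 3 zones. It was denser towards the domain, so these shares of all sequence do not give how much of it was acetylated. Counted for domains of all widths, H3K27ac covered 28.6% of the H3K4me3 sequence within 3 kb outside and 42.9% at over 20 kb. H3K27ac away from H3K4me3 was thus still below its level at 20 to 50 kb in the zone from 10 to 20 kb. These are sums over all such domains with no test.

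**Figure D4:**
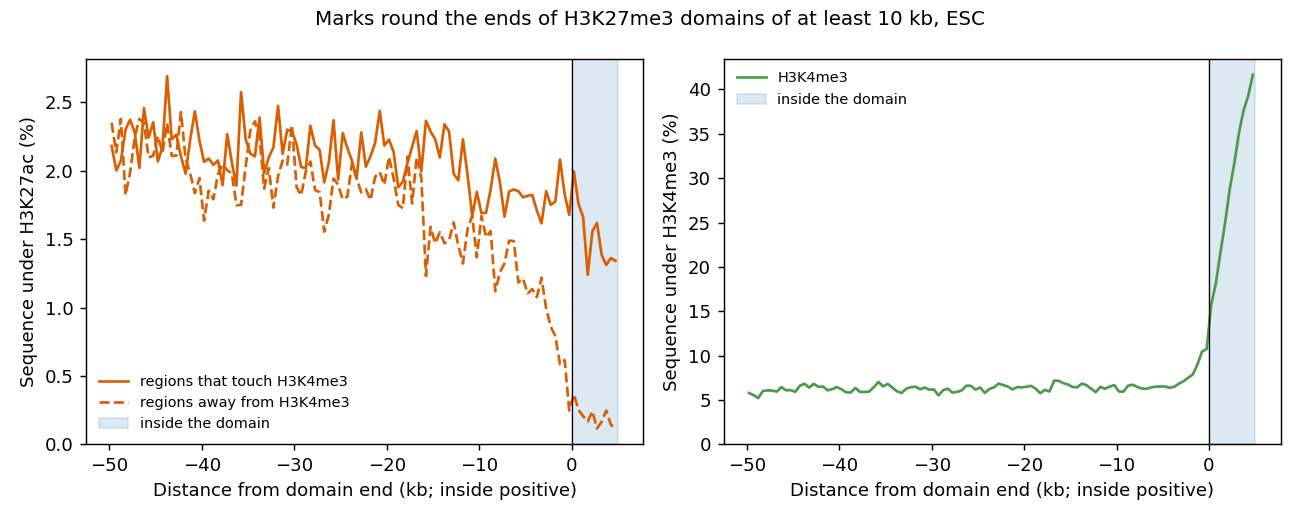
Percent of sequence under H3K27ac (left) and under H3K4me3 (right) in bins of 500 bp around the ends of H3K27me3 domains of at least 10 kb, with positive distances inside the domain and bins that hold another domain left out. H3K27ac regions away from H3K4me3 (dashed) are sparser towards the end (0.432% in the last 1 kb outside, 2.01% at 20 to 50 kb). Those that touch H3K4me3 (solid) change less as a share of all sequence, while H3K4me3 itself is denser towards the domain.

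Distances from H3K27ac regions that did not touch H3K27me3 followed the same split. The median gap from an H3K27ac region to the nearest H3K27me3 region was 31.4 kb at H3K4me3 and 52.8 kb away from it. After shifting, the mean of the medians was 47.0 kb and 48.5 kb. At H3K4me3, 6.51% of the H3K27ac regions off methylation lay within 1 kb of it, 2.04 times the shifted level, and 17.9% within 5 kb, 1.54 times. Away from H3K4me3, 1.14% lay within 1 kb, 0.363 times the shifted level, and 7.19% within 5 kb, 0.633 times. Counted at 10 to 20 kb alone, the ratio away from H3K4me3 was 1.04. Each region has a single nearest distance, so a deficit close by raises the share further out. Within 20 kb the share away from H3K4me3 was still 25.9%, against 30.2% after shifting (29.3 to 31.0), 0.858 times. Pooled, 11.4% lay within 5 kb (11.3 to 11.5) against 11.5% after shifting along the chromosome (11.1 to 11.8), and these ranges overlap. After shifts within 1 Mb the mean was 12.6% (12.3 to 12.8), above the share found.

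From H3K27me3 to the nearest H3K27ac region the median gap was 3.22 kb at H3K4me3 and 5.04 kb away from it, against shifted means of 3.47 and 3.33 kb. At H3K4me3, 27.5% of the methylated regions off acetylation lay within 1 kb of it, 1.34 times the shifted level. The ratios at 1 to 2, 2 to 3 and 3 to 5 kb were 0.876, 0.775 and 0.837. Within 5 kb the share there was 61.3%, against a shifted mean of 61.1% (59.7 to 63.1). Away from H3K4me3, 10.8% of the methylated regions off acetylation lay 20 to 50 kb from the nearest H3K27ac region, 2.15 times the shifted level, and 1.96% lay 50 to 100 kb from it, 2.61 times. At H3K4me3 the ratios for these distances were 1.21 and 0.795.

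The direction was the same on all 20 chromosomes. The share of H3K27ac regions at H3K4me3 that touched H3K27me3 was 5.23% ± 1.74 (SD over 20 chromosomes), from 3.38% on chromosome 17 to 10.7% on chromosome 19. It was 1.85 ± 0.303 times the shifted level, from 1.34 on chromosome 16 to 2.43 on chromosome 4. Away from H3K4me3 the share was 0.540% ± 0.230, and 0.197 ± 0.0340 times the shifted level, from 0.122 on chromosome 12 to 0.268 on chromosome 17. For H3K27me3 regions the ratio was 1.51 ± 0.168 at H3K4me3 and 0.387 ± 0.0921 away from it. The wide range of the first share went with the shifted level, which was highest on chromosome 19 too, at 6.37%.

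Regions with both marks were set against the lists that had no part in choosing them. H3K9me3, the mark of constitutive heterochromatin, lay on 13.1% of the H3K27ac regions at H3K4me3 that touched H3K27me3 and on 9.94% of those that did not. Away from H3K4me3 it lay on 17.1% (15.01 to 19.4) and 7.81%. In iPSC, H3K27me3 lay on 45.4% of the ESC H3K27ac regions at H3K4me3 with both marks and on 6.37% of those with H3K27ac alone. Away from H3K4me3 these shares were 11.5% and 1.61%. Of the ESC H3K27me3 regions at H3K4me3, iPSC H3K27ac lay on 61.9% of those with both marks and on 2.94% of those with H3K27me3 alone. iPSC H3K27me3 lay on 53.1% and 56.7% of them. Where the iPSC mark is the one that split the ESC regions, the contrast shows agreement of that mark between the lists. It does not bear on both marks lying together. At H3K4me3 the regions differ in width, with medians of 333 and 260 bp for H3K27ac and of 457 and 880 bp for H3K27me3. These shares are thus not those of like regions. For H3K27ac away from H3K4me3 the medians were 196 and 195 bp.

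The iPSC lists of the 2 marks were compared in the same way. The ESC shares of 5.10% at H3K4me3 and 0.506% away from it were 1.79 and 0.196 times their shifted levels. In iPSC the shares of H3K27ac regions that touched H3K27me3 were 8.42% and 1.39%, which were 1.69 and 0.308 times theirs. The direction was thus the same in the lists of both cell types. Whether the ratios differ beyond the spread of cultures was not tested, since there is 1 list per cell type and mark.

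Single places show the extremes. The longest stretch under both marks was 2.28 kb on chromosome 6, from 36430551 to 36432828. It lay wholly under H3K4me3 and free of H3K9me3, in a methylated domain of 2.74 kb. In iPSC, H3K27ac covered 84.2% and H3K27me3 32.7% of it. The stretches ranked 4 and 5, on chromosome 11 from 50358347 to 50359935 and from 14527443 to 14528970, were also wholly under H3K4me3 and had 89.7% and 99.3% H3K27ac in iPSC. Those ranked 2 and 3 held H3K9me3 and little H3K4me3. The stretch on chromosome 16 from 72184978 to 72186918 was 72.7% under H3K9me3, and that on chromosome 15 from 105204493 to 105206406 was wholly under it, with 5.20% and 18.03% H3K4me3. In iPSC, H3K27ac covered 12.0% and 26.3% of these 2 stretches. H3K27me3 in iPSC covered 73.8% and 77.1% of them, and 82.6% and 100% of those ranked 4 and 5. The part of H3K9me3 in these overlaps was not tested.

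The widest domain without H3K27ac spanned 235 kb on chromosome 11, from 49979385 to 50214767. H3K27me3 covered 94.8% of it and H3K4me3 52.5%, and the nearest H3K27ac region lay 2.49 kb outside. The next spanned 182 kb on chromosome 3, from 84079185 to 84261403, with 59.6% H3K4me3 and no H3K27ac within 34.8 kb. The others were of 150 kb on chromosome 12 (61817576 to 61967119), 102 kb on chromosome 6 (129826859 to 129928752) and 96.9 kb on chromosome 17 (7184968 to 7281836). None of these 5 held H3K27ac in iPSC, and iPSC H3K27me3 covered between 62.5% and 90.2% of each.

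Among domains of at least 10 kb, H3K27ac covered the largest share, 20.7%, in a domain of 12.9 kb on chromosome 13, from 89272389 to 89285294, through 6 H3K27ac regions. In iPSC H3K27me3 covered 0% of this domain. The next 3, on chromosome 3 (5037852 to 5047910) and chromosome 7 (41607306 to 41618435 and 39339832 to 39353939), had 18.9%, 18.7% and 18.2% H3K27ac and iPSC H3K27me3 over 7.91%, 28.7% and 14.8%. The domain ranked 5, 27.7 kb on chromosome 5 from 106342841 to 106370577, had 18.0% H3K27ac in 8 regions and differed in being 84.7% methylated in ESC and 79.97% in iPSC. The widest of the 12 domains with H3K27ac at both ends only was of 26.8 kb on chromosome 9, from 122018214 to 122045051. H3K4me3 covered 64.5% of the whole domain. Of its 2 H3K27ac regions, that at the far end reached past the domain, from 26.77 to 27.10 kb after the domain start. The others named by the same rule were of 10.6 kb on chromosome 16 (36519427 to 36529993) and 8.93 kb on chromosome 4 (1296122 to 1305052). Coordinates are as in the deposited lists, whose build the sources used here do not give, and no gene is named.

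**Figure D5:**
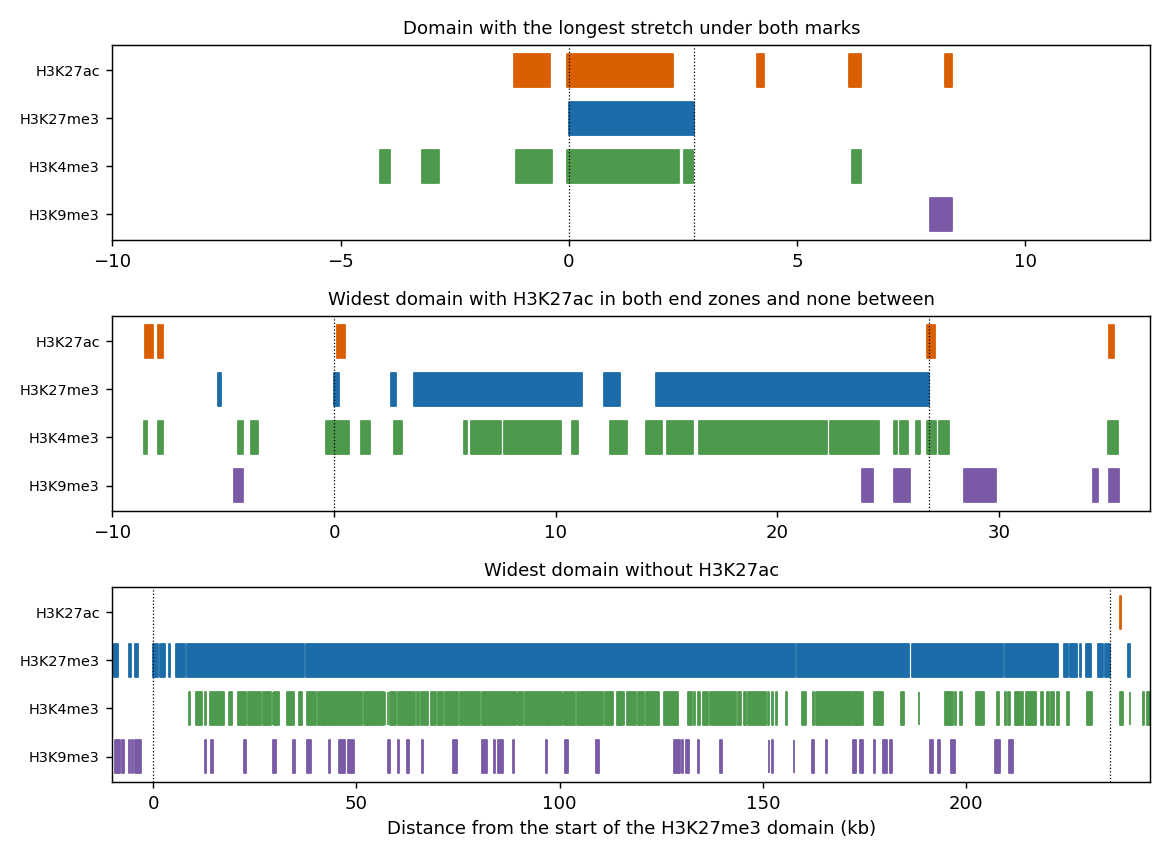
Peaks of the 4 marks in ESC over 3 H3K27me3 domains, with the distance from the domain start in kb and dotted lines at the domain ends. A single H3K27ac region overlies the 2.74 kb domain at the top, the 26.8 kb domain in the middle has H3K27ac at both ends, and the 235 kb domain at the bottom has none although H3K4me3 covers 52.5% of it.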

How the data were processed

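The tools named in the submitters' processing notes are deepTools, Picard, SAMtools 1.10 and MACS2. The sources used here do not give the aligner, genome build, thresholds or pooling of libraries and inputs. Each deposited list gives for every peak a fold enrichment over background (a linear ratio) and the −log10 of its q, both from the authors' peak caller. The deposited narrow lists also give the offset of the summit. They served only for describing, ranking and filtering within a list. The RefSeq gene table at hand and the lists ended more than 5 Mb apart on 12 of 20 chromosomes, so genes and sequences were not joined.

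Overlap was at least 1 bp. Chromosome lengths were the furthest peak end in the 8 lists. Regions of a list were shifted by a random offset along each chromosome, or within windows of 1 Mb, 100 times each. Domains were H3K27me3 peaks joined within 3 kb. Regions named were the 5 longest stretches under both marks, the 5 widest domains without H3K27ac, the 5 domains of at least 10 kb with the largest H3K27ac share and the 3 widest with H3K27ac at both ends only. Python 3.11.15, numpy 2.4.6 and scipy 1.17.1 were used, and the interval code was tested on simulated data. The comparison and its measures were chosen with earlier results of these data known. No p-value was computed. Wilson intervals express counting error alone and treat neighbouring regions as independent, which they are not.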

Additional observations from a re-analysis of the deposited data

How the results depend on the processing

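No paired analysis was possible because each mark has 1 list and no library has its own. For the same reason no library could be left out. Overlap at H3K4me3 stayed above, and overlap away from it below, the shifted level of the same setting under every alternative run. All of them keep the limits of the shifts given above, so these sides carry the tie of both marks to H3K4me3 and the make-up of the classes. The base pair ratio under H3K4me3, 0.239, was not among the values rerun. In the order H3K27ac at, H3K27ac away, H3K27me3 at and H3K27me3 away from H3K4me3, the shares that touched the other mark were 2.87%, 0.345%, 14.3% and 1.42% with 50% of a region covered, 3.28%, 0.169%, 20.99% and 1.67% with firm peaks (−log10 q of 5 for narrow and 2 for broad lists), and 2.79%, 0.0717%, 12.7% and 0.470% with stricter peaks (10 and 3). With H3K4me3 within 1 kb in place of overlap the first 3 were 4.16%, 0.386% and 22.1%, and with firm H3K4me3 the 4 were 5.83%, 0.561%, 29.8% and 4.28%. Without methylated regions on H3K9me3 the first 3 were 4.08%, 0.399% and 30.3%. By summits, H3K27ac gave 3.77% and 0.370%, and without chromosome 19 the first was 4.95%. The share in the edge zone was 26.01% without joining, 16.4% with joining within 10 kb, 11.9% and 43.1% with zones of 0.5 and 2 kb, 16.8% in domains of at least 10 kb, 24.1% without methylated regions on H3K9me3 (shifted mean 22.2%) and 32.3% for H3K27ac away from H3K4me3, above its shifted mean each time. The share of H3K27ac within 5 kb of methylation was 6.46% with firm peaks (shifts 6.73 to 7.18) and 3.77% with stricter peaks (3.93 to 4.37), below every shift, and it was 9.79% without H3K9me3, 7.19% away from H3K4me3 and 11.1% without chromosome 19. Its side of the shifted level turned with the distance, to 3.25% against 3.17% within 1 kb and 31.4% against 30.5% within 20 kb, so the direction of the pooled distance depends on the distance, the peaks kept and the shift. Shifts within 1 Mb gave a ratio of 0.905 for the share within 5 kb. With firm H3K4me3 only, an alternative chosen after seeing the data, H3K27ac covered 7.78% of the methylated H3K4me3 sequence and 44.9% at over 20 kb.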

Other observations

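Both marks were also set against ESC H3K9me3. Of the H3K27me3 regions 21.7% touched H3K9me3 (21.4 to 22.1), against a shifted mean of 16.2% (15.7 to 17.0). The share was 23.2% at H3K4me3, 1.16 times the shifted level, and 20.3% away from it, 1.60 times. Of the H3K27ac regions 8.76% touched H3K9me3, 0.787 times the shifted level. H3K9me3 covered 17.6% of the length of H3K27me3 domains under 0.5 kb and 7.34% of that of domains of at least 20 kb.

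Regions with both marks in ESC were also set against iPSC lists. Of the ESC H3K27ac regions with both marks, iPSC H3K27ac lay on 63.3% at H3K4me3 and on 26.3% away from it. With H3K27ac alone the shares were 57.2% and 31.3%. iPSC H3K4me3 lay on 94.5% of the ESC H3K27ac regions at H3K4me3 with both marks and on 78.1% of those with H3K27ac alone. At H3K4me3 the regions with both marks were wider than those with H3K27ac alone, with medians of 333 and 260 bp. No share here has a replicate list behind it.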
